A study of Mus musculus with 75 samples.

Results

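Outer hair cells (OHCs) of the cochlea change length with voltage, and Prestin, the membrane motor protein encoded by Slc26a5, drives this. Prestin is packed in the lateral plasma membrane, under which lies a cortical lattice of actin filaments cross-linked by spectrin. Ankyrins attach spectrin to membrane proteins, and tropomodulins cap the pointed ends of the filaments. Adducins and some, not all, Epb41 family proteins strengthen the junctions between spectrin and actin. The supporting cells (SCs) around the OHCs, the pillar and Deiters' cells, make no Prestin and hold a rigid cytoskeleton of their own.

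Here, 9 genes of this lateral wall apparatus were described out of 55291 genes in a table of read counts: Slc26a5, the α spectrin gene Sptan1, the β spectrin genes Sptbn1 and Sptbn4, the ankyrin genes Ank1 and Ank3, Epb41l3, the adducin gene Add3 and the tropomodulin gene Tmod1. They were taken by name as the motor and the cortical scaffold. Several had few or no reads in most OHCs, as given below. Of these, 7 passed the filter on low counts and were tested among 11443 genes. Sptbn4 and Ank1 did not pass and were described without a test.

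The libraries were 75 hand-picked single cells, each with its cDNA amplified in full length by a Smart-Seq kit. The 17 WT_P30 OHCs came from Slc26a5 CreER/+; Ai9/+ mice given tamoxifen at P20 and P21, and the 16 WT_P60 SCs, mostly pillar and Deiters' cells, from Fgfr3-iCreER+; Ai9/+ mice given it at P30 and P31. The other 42 were Tdtomato+ cells collected at P60 from mice called Fgfr3-Atoh1-Ikzf2-DTR, which carried Fgfr3-iCreER+ and CAG-LSL-Atoh1+ together with the alleles Rosa26 CAG-LSL-Ikzf2/+ and Slc26a5 DTR/+. In these mice, Cre in Fgfr3+ SCs turned on the transcription factors Atoh1 and Ikzf2 after tamoxifen at P30 and P31, and diphtheria toxin at P36 killed the OHCs, which carry its receptor (DTR) under Slc26a5. The authors divided these induced cells by Myo7a and Prestin into 11 OHC-like cells with both, 16 nascent HCs with Myo7a alone and 15 SCs failing to become HCs with neither (failing SCs below). Slc26a5 therefore helped to define the induced groups, and its differences among them are given as values with no test.

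The total count per cell ran from 4264780 to 22934062. A WT_P30 OHC had 4777 genes at 1 CPM or more in the median cell (CPM, the count scaled to a library of 1000000), and the other groups had medians between 6872.5 and 8488. Myo7a, a hair cell myosin, was detected at 1 CPM in every WT_P30 OHC, OHC-like cell and nascent HC, in 3 of 15 failing SCs and in 0 of 16 WT_P60 SCs. All 5 OHC markers examined were detected among the WT_P30 OHCs. Of 7 SC markers, 4 were also detected there, with a sum of at least 1 CPM in 5 of 17 cells (0 CPM in the median cell and 496 CPM in the highest), and Sox2, Sox10 and Gjb6 were at 0. Of 3 inner hair cell markers, 2 were detected in the WT_P30 OHCs, with a summed median of 427 CPM (0 to 1376) that came mostly from Otof (435 ± 432 CPM), and Slc7a14 was at 0. In OHC-like cells that sum was at most 2.12 CPM. Markers of other cell types were present too. The sum of 2 endothelial genes was at least 1 CPM in 9 of 16 WT_P60 SCs (mean 78.4 CPM). That of 3 Schwann cell genes was so in 9 of 11 OHC-like cells (72.1 CPM) and 12 of 16 nascent HCs (43.4 CPM). For 5 neuron genes it was so in 16 of 17 WT_P30 OHCs (272 CPM) and 9 of 11 OHC-like cells (168 CPM). The part of these markers in the results was not tested. Library codes in the labels fall into 7 runs, lettered A to G here and called series, each with its own prefix or its own stretch of code numbers. Each wild-type group filled a series of its own and the induced cells filled the other 5, so cell group and series cannot be told apart in any comparison with wild-type cells. The number of mice behind each group is not given in the sources used here, and cells are the units of every test. Levels are CPM scaled by the trimmed mean of M-values (TMM), as mean ± SD over cells, unless a per-length unit (TPM, with counts divided by exon length before scaling) is named. Because the kit has no molecular identifiers, a count is a number of reads, and intervals cover counting error only.

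Slc26a5 lies on chromosome 5 at 21810655 to 21865604 of GRCm38, on the minus strand. All mice except those of the WT_P60 SCs carried 1 modified Slc26a5 allele. The genotyping primers of the 2 alleles are shown, because they place both insertions at the end of the coding sequence whose reads are counted here. Capitals would mark a mismatch to the annotated transcript, and there are none.

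Slc26a5-DTR-F1: ctgccttgaaagagcttctg

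Slc26a5-DTR-R: tccaaatcgagccgtaactg

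Slc26a5-CreER-F: cacaagttgtgaatgacctc

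Slc26a5-CreER-R1: taactgctagcatttccctt

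On transcript Slc26a5-201, of 2962 bases and 20 exons, all 4 primers matched exon 20. The forward primers lay in coding sequence, 126 bases (DTR, chromosome 5, 21811277 to 21811296) and 171 bases (CreER, 21811322 to 21811341) before the last coding base. The reverse primers matched the opposite strand of the 3′ untranslated region, with 103 bases (DTR, 21811028 to 21811047) and 89 bases (CreER, 21811042 to 21811061) between them and that base. The pairs thus span 269 and 300 bases of the unmodified transcript, with the stop codon inside. The 2 primers specific for the knock-in alleles matched no Slc26a5 transcript. How the inserted sequences affect the number of reads assigned to Slc26a5 was not tested.

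Slc26a5 separated the WT_P30 OHCs from every other cell. In WT_P30 OHCs it was at 780 CPM in the lowest cell, 1644 CPM in the median cell and 2558 CPM in the highest (mean 1668 ± 482, n = 17). In the 11 OHC-like cells the lowest was 15.9 CPM, the median 56.4 and the highest 174 CPM (mean 67.0 ± 52.3). The highest OHC-like cell was thus below the lowest WT_P30 OHC, and the group means differed 24.9-fold. Ranges lower in OHC-like cells without overlap were found for 0.306% of all tested genes. The fitted log2 fold change was -4.64 (SE 1.01, adjusted p = 0.000212). With the number of detected genes as a covariate it was -3.60 (adjusted p = 0.274), and that number was itself lower in OHCs.

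Among the nascent HCs, 11 of 16 had no Slc26a5 read. The 3 nascent HCs with the most had 87, 100 and 122 reads, which came to 7.5, 8.74 and 14.7 CPM, and the other 2 had 1 read each. No OHC-like cell had fewer than 161 reads. In TMM-scaled CPM the ranges of OHC-like cells and nascent HCs did not overlap but lay close, at 15.9 and 14.7 CPM. Scaled by the total count alone they overlapped, with nascent HC 2 at 16.4 CPM and OHC-like cell 3 at 16.0 CPM. Per exon length these 2 cells were at 14.4 and 11.2 TPM. Of the 15 failing SCs, 1 held 5 reads (1.16 CPM) and the others none, and of the 16 WT_P60 SCs, 1 held a single read.

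Against the 1 read in WT_P60 SCs, pooled Slc26a5 CPM was 191500 times as high in WT_P30 OHCs (exact 95% counting interval from 34370) and 7726 times as high in OHC-like cells (1386 to 305198). The fitted log2 fold changes were 16.13 (SE 1.35, adjusted p = 2.15e-16) and 11.49 (SE 1.21, adjusted p = 1.2e-11). OHC-like cells were defined by Prestin, and WT_P30 OHCs were picked by a label that Cre from the Slc26a5 locus switched on. Both values thus follow in part from how the cells were chosen. In nascent HCs the pooled ratio was 195 (34.7 to 7717), resting on the 3 cells above, and the log2 fold change was 6.39 (SE 1.02, adjusted p = 1.44e-06). With limma-trend it was 1.02 (adjusted p = 0.207). In the fit of these 2 groups alone Slc26a5 did not pass the filter on low counts, so it was tested here only through the groups in which it is high. In failing SCs the pooled ratio was 4.59 (0.513 to 217).

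**Figure D1:**
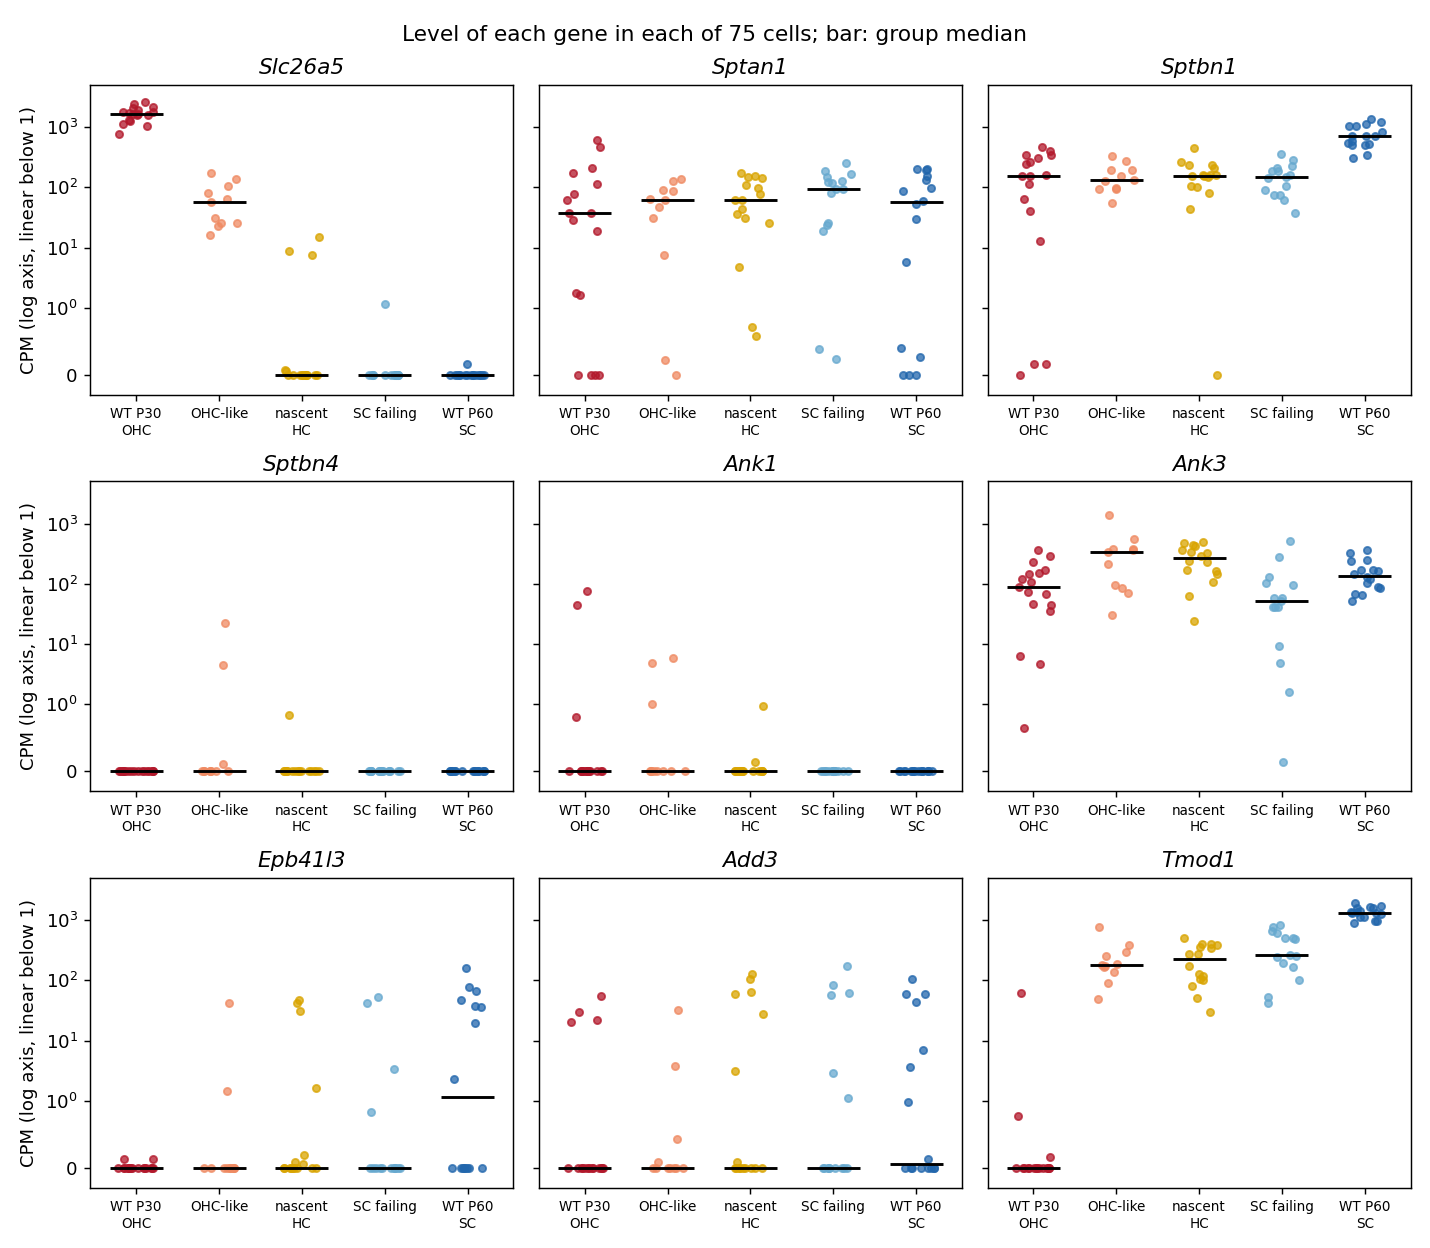
CPM of each of the 9 genes in every cell, with a panel per gene, the 5 groups along the horizontal axis and CPM on a log axis that is linear below 1; each point is a cell and each bar a group median. Slc26a5 falls in steps from WT_P30 OHCs (median 1644 CPM) to OHC-like cells (56.4 CPM) to the rest (0 CPM), and Tmod1 runs the other way, from a median of 0 CPM in WT_P30 OHCs to 1331 CPM in WT_P60 SCs.

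Within the SLC26 family of anion transporters, Slc26a5 accounted for 99.9% of the summed mean TPM in WT_P30 OHCs and 91.3% in OHC-like cells. It had the highest TPM of the family in 17 of 17 and 11 of 11 of these cells. Of the 10 other family genes, 2 passed the filter on low counts. Slc26a11, a widely expressed family member, was called lower in WT_P30 OHCs than in WT_P60 SCs, at 0 against 25.2 CPM. It was the family gene with the highest mean in WT_P60 SCs, at 19.3 TPM.

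Across all 75 cells, the genes whose log2(CPM + 1) was most like that of Slc26a5 were the predicted gene Gm6558 (Pearson r = 0.94), Ocm, which encodes the OHC calcium buffer oncomodulin (0.93), Tmc1, which encodes a subunit of the mechanotransduction channel (0.91), Cacna1d, a voltage-gated calcium channel gene (0.91), and Fcrlb (0.91). These values describe the step between the WT_P30 OHCs, which share a library series, and the other cells. Within groups the relation was weak: the Spearman correlation of Slc26a5 with Ocm was 0.15 over the 17 WT_P30 OHCs and 0.31 over the 11 OHC-like cells. With the number of genes detected it was -0.12 and 0.14.

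In WT_P30 OHCs compared with WT_P60 SCs, the comparison of the mature cell types, 3 of the 7 tested genes were called (adjusted p below 0.001, log2 fold change beyond 2 in either direction), when 15.3% of all tested genes were. Slc26a5, whose Cre allele labelled the OHCs for picking, was higher in OHCs, and Tmod1 and Epb41l3 were lower. At a looser threshold (adjusted p below 0.05, log2 fold change beyond 1), Sptbn1 was also lower, when 24.9% of all genes were called. The median log2 fold change of the 7 genes was -1.22, and that of all tested genes -0.16.

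Tmod1, whose protein caps the pointed ends of actin filaments in the red cell membrane lattice and in other cells, lies on chromosome 4 at 46038935 to 46116032. Tmod1 was at 0 CPM in the lowest and in the median WT_P30 OHC and at 61.5 CPM in the highest, with 14 of 17 OHCs holding no read. In the WT_P60 SCs it was at 886, 1331 and 1902 CPM (lowest, median, highest). The ranges were far apart, and the log2 fold change was -8.51 (SE 1.02, adjusted p = 2.3e-10). Ranges lower in OHCs without overlap were found for 1.96% of all tested genes.

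The induced cells lay between these extremes for Tmod1, and every one of them expressed it. OHC-like cells ranged from 49.3 to 755 CPM (median 177), nascent HCs from 30.1 to 499 CPM (median 223) and failing SCs from 41.2 to 812 CPM (median 265). All 42 induced cells were thus below the lowest WT_P60 SC, a pattern that 0.306% of the tested genes showed. Scaled by the total count alone, the highest induced cell was at 742 CPM and the lowest WT_P60 SC at 878 CPM.

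The mean of Tmod1 was 5.51 times lower in OHC-like cells than in the WT_P60 SCs (log2 fold change -2.46, SE 0.92, adjusted p = 0.0632), 5.75 times lower in nascent HCs (-2.52, SE 0.80, adjusted p = 0.0184) and 3.55 times lower in failing SCs (-1.83, SE 0.79, adjusted p = 0.173). None of the 3 was called at the main threshold, although none of the ranges overlapped, as for 0.935%, 0.874% and 0.481% of all genes in that direction. The spread in this fit is shared by all 5 groups, and in a fit of the 2 groups alone the first 2 were called (adjusted p = 1.57e-06 and 4.9e-08). Against WT_P30 OHCs, Tmod1 was 66.2 times higher in OHC-like cells (log2 fold change 6.05, SE 0.93, adjusted p = 4.84e-07), although the OHC with 61.5 CPM lay above the lowest OHC-like cell. In the fit of those 2 groups alone it was not called (adjusted p = 0.00898). The size of this difference rests on that cell, WT_P30 OHC 6, which held all but 7 of the 379 Tmod1 reads of its group. Without it, a fit chosen after seeing the data, the log2 fold change was 11.66 against OHC-like cells (adjusted p = 1.32e-22) and -14.12 against WT_P60 SCs (adjusted p = 4.8e-26), and the pooled ratio of OHC-like cells to OHCs was 3530 (exact 95% counting interval 1713 to 8780).

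Of the 3946 exon bases of Tmod1, 1287 are shared with Tstd2 on the opposite strand, and the use of strand in counting is not stated. Tstd2 was at 82.2 ± 65.9 CPM in WT_P60 SCs, 12.7 ± 21.3 in OHC-like cells and 17.7 ± 42.6 in WT_P30 OHCs, far less than Tmod1 in the SCs. Its part in the Tmod1 values was not tested. The genes most like Tmod1 over the 75 cells were Cmtm8 (Pearson r = 0.90), Syne2, a nuclear envelope spectrin-repeat gene (0.89), and Tmsb10, an actin monomer binding gene (0.88).

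The 300 bases around the annotated starts of Slc26a5 and Tmod1, the genes at opposite ends between OHCs and SCs, are shown with 2 short motifs in capitals. One is the E-box CANNTG, the type of site that Atoh1 binds. The other is GGGAA, or TTCCC on the opposite strand, the core of sites bound by Ikaros family proteins such as Ikzf2. The sequences are from RefSeq on GRCm38.p6 and run from 250 bases before to 50 after the start.

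Slc26a5, chr5:21865555-21865854, minus strand: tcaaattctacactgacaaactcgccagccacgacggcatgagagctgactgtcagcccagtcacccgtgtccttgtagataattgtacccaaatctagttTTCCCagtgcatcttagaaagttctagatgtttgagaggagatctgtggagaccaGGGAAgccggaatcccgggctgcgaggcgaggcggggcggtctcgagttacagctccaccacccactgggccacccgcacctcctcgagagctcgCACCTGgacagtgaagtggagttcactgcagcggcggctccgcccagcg

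Tmod1, chr4:46038972-46039271, plus strand: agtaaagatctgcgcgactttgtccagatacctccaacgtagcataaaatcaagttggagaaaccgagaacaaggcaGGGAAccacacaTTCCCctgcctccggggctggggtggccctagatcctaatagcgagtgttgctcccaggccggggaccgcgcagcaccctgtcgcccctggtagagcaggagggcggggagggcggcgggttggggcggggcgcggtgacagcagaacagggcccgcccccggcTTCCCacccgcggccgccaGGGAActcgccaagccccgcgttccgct

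The Slc26a5 window held 1 E-box, CACCTG just after the start, and 2 Ikaros-type cores, and the Tmod1 window held no E-box and 4 cores. Of 32851 mouse promoters of this length, 72.3% held an E-box and 62.7% an Ikaros-type core. Both motifs are therefore common, and a match describes letters and not a bound site. Of the 9 genes, 7 had an entry in the table, Ank1 and Ank3 had none, and the other windows held from 0 to 6 E-boxes.

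Epb41l3 encodes a membrane skeleton adaptor of the Epb41 family. It was all but absent from WT_P30 OHCs, with 2 reads in 17 cells, and patchy in WT_P60 SCs, where 8 of 16 cells had reads and the highest reached 160 CPM (mean 27.8 ± 43.7). The log2 fold change was -9.86 (SE 2.12, adjusted p = 0.00013), the pooled ratio of SCs to OHCs was 1641 (exact 95% counting interval 454 to 13553), and the ranges overlapped at 0 CPM. With the number of detected genes as a covariate it was not called (adjusted p = 0.014), nor with limma-trend (adjusted p = 0.00156), and in the fit of the 2 groups alone it did not pass the filter. It was detected at 1 CPM in 2 of 11 OHC-like cells, 4 of 16 nascent HCs and 3 of 15 failing SCs, with means of 3.93, 7.66 and 6.62 CPM. None of these passed the test against WT_P60 SCs (adjusted p from 0.478 to 0.656). OHC-like cells were above WT_P30 OHCs at 0.05 and 1 (adjusted p = 0.00285), but 9 of 11 held no read and 1 cell was at 41.7 CPM. Without that cell, OHC-like cell 1, the adjusted p was 0.262, with limma-trend 0.53 and with the number of detected genes as a covariate 0.75.

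Sptbn1, which encodes the βII spectrin found under the membrane of most cells, was highest in WT_P60 SCs. It was at 302, 712 and 1368 CPM in the lowest, median and highest WT_P60 SC. OHC-like cells ran from 54.8 to 334 CPM (median 130), nascent HCs from 0 to 446 CPM (median 157) and failing SCs from 37.2 to 350 CPM (median 149). No induced cell reached the median of the WT_P60 SCs, and 39 of 42 were below the lowest. WT_P30 OHCs ran from 0 to 465 CPM (median 156), a range like that of the induced cells.

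The mean of Sptbn1 was 4.74 times lower in OHC-like cells than in the WT_P60 SCs (log2 fold change -2.24, SE 0.66, adjusted p = 0.0113), 4.52 times lower in nascent HCs (-2.18, SE 0.57, adjusted p = 0.00313), 4.86 times lower in failing SCs (-2.28, SE 0.59, adjusted p = 0.00364) and 4.19 times lower in WT_P30 OHCs (-2.07, SE 0.56, adjusted p = 0.00239). These 4 differences passed an adjusted p of 0.05 and a log2 fold change of 1 and not the main threshold. DESeq2 called all 4 at the main threshold. Between OHC-like cells and WT_P30 OHCs the log2 fold change was -0.18 (SE 0.61, adjusted p = 0.918). The genes most like Sptbn1 were Slc44a2 (Pearson r = 0.61), Fabp3-ps1 (0.54) and Gdpd5 (0.53).

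Sptan1, the α spectrin that pairs with the β spectrins, showed no such step. Its median was 37.5 CPM in WT_P30 OHCs, 60.5 in OHC-like cells, 61.7 in nascent HCs, 94.8 in failing SCs and 56.1 in WT_P60 SCs, and every group ranged from under 1 CPM to over 138 CPM. It was not called in any of the 7 comparisons, with log2 fold changes between -0.88 and 0.52.

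Sptbn4, the β spectrin of axon initial segments and nodes, was nearly silent. No WT_P30 OHC held a read, and no WT_P60 SC or failing SC did. With 17 OHCs this allows a share of cells with reads of up to about 17.6% (3 divided by 17). It was present in 3 OHC-like cells, with 297, 34 and 2 reads (22.2 CPM in the highest), and in 1 nascent HC with 7 reads. The mean of OHC-like cells was at least 5.5 times the level that 3 reads per cell would give in WT_P30 OHCs. It rested on a single cell for the most part and was not tested.

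**Figure D2:**
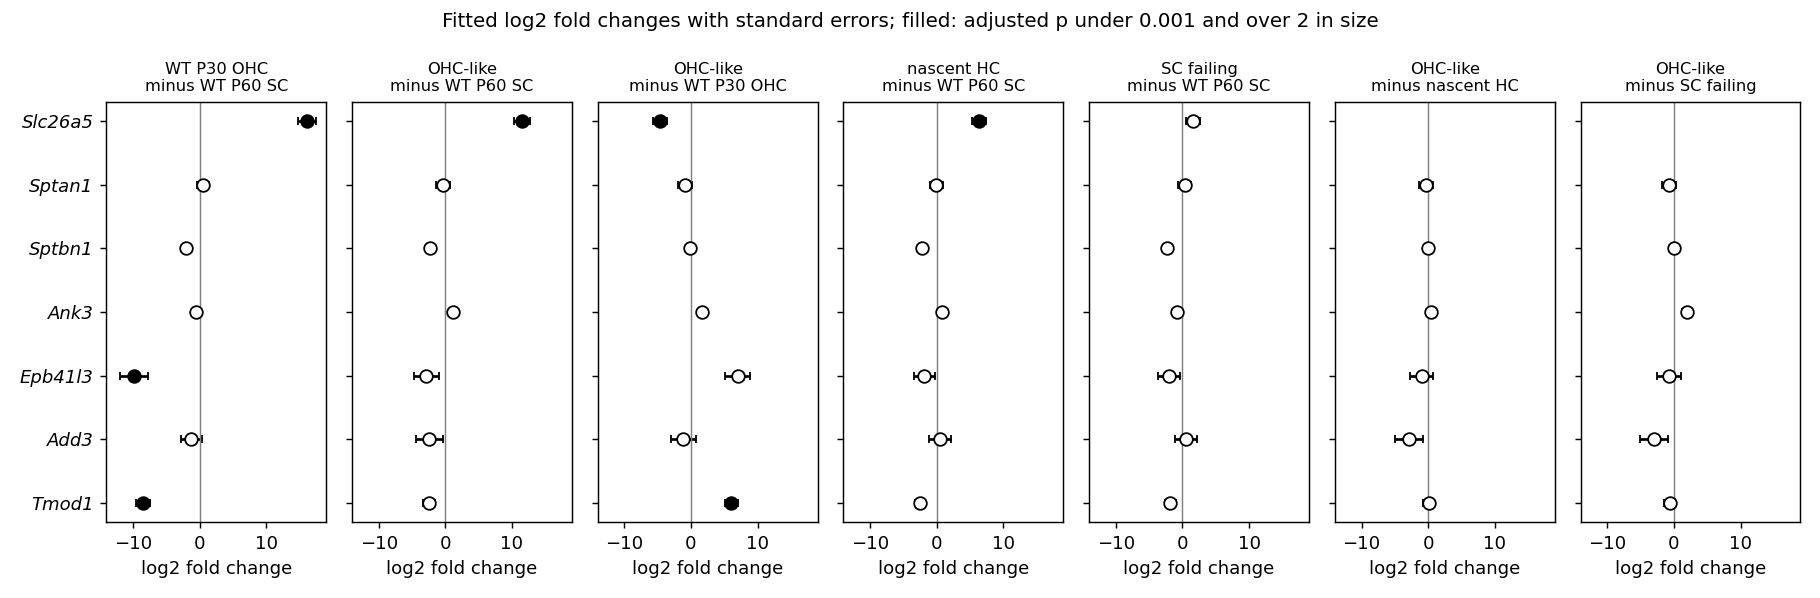
Fitted log2 fold change (horizontal axis) with its standard error for the 7 tested genes in the 7 comparisons, one panel each, first named group minus the second; filled points passed an adjusted p of 0.001 and 2 on the log2 scale, and Slc26a5 is not drawn in the last 2 panels because it defined those groups. Slc26a5, Epb41l3 and Tmod1 are filled between the wild-type cells, and no point is filled in the last 2 panels.

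Ank3 encodes ankyrin-G, which holds membrane proteins at axon initial segments and lateral membranes. It was at a median of 343 CPM in OHC-like cells, with a range from 29.9 to 1379 CPM, and at 264 CPM in nascent HCs (23.9 to 492). WT_P60 SCs had a median of 136 CPM (52.5 to 367), WT_P30 OHCs 87.2 (0.649 to 371) and failing SCs 51.4 (0.143 to 504). OHC-like cells and nascent HCs thus had the highest medians, with wide overlap.

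Ank3 in OHC-like cells was 3.08 times the level in WT_P30 OHCs (log2 fold change 1.62, SE 0.61, adjusted p = 0.0474), 2.24 times that in WT_P60 SCs (1.16, SE 0.61, adjusted p = 0.279) and 3.75 times that in failing SCs (1.91, SE 0.63, adjusted p = 0.0624). Only the first passed an adjusted p of 0.05, and none the main threshold. That adjusted p was 0.186 with library size only, 0.0862 with the number of detected genes as a covariate, 0.167 in the fit of the 2 groups alone and 0.193 without OHC-like cell 4, the cell at 1379 CPM. Per exon length, that cell was at 19.9 TPM, and the group means were 15.6 TPM in OHC-like cells, 7.82 in WT_P30 OHCs and 12.2 in WT_P60 SCs. Failing SCs and OHC-like cells shared series A and E, of the 5 series of induced cells. In series A the 1 OHC-like cell was at 29.9 CPM and the 4 failing SCs averaged 95.7 CPM, and in series E the 2 OHC-like cells averaged 229 CPM against 95.3 CPM in the 1 failing SC. An arm of 1 cell has no spread, so no test within a series was made. With series as a term, the log2 fold change was 0.39 (adjusted p = 1). The genes most like Ank3 were Abca2 (Pearson r = 0.56), the kinesin gene Kif1b (0.54) and Dolpp1 (0.53).

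Ank1 encodes ankyrin-R, the ankyrin of red cells and some neurons. Reads were found in 3 WT_P30 OHCs, with 569, 320 and 5 reads, and the highest cell was at 74.6 CPM. Among OHC-like cells, 3 had 54, 36 and 19 reads. The nascent HCs held 20 reads in 1 cell and 1 read in another, and no failing SC or WT_P60 SC held any. OHC-like cell 2, with 36 Ank1 reads, also had 2700 CPM of 6 red cell genes summed. No other cell exceeded 78.0 CPM for those genes. The cell at 78.0 CPM was WT_P30 OHC 14, which held 5 Ank1 reads. The 2 OHCs with more Ank1 were not among the 5 cells highest in red cell genes. The part of red cell genes in Ank1 was not tested.

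Add3 encodes γ-adducin. At 1 CPM, 4 of 17 WT_P30 OHCs expressed it, as did 2 of 11 OHC-like cells, 6 of 16 nascent HCs, 6 of 15 failing SCs and 6 of 16 WT_P60 SCs. Its mean was lowest in OHC-like cells, at 3.27 ± 9.50 CPM, and highest in failing SCs, at 25.3 ± 49.5 CPM. It was called in none of the comparisons, and its adjusted p was 0.615 or more in each.

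Across the comparisons of induced with wild-type cells, few of the 7 genes were called. In OHC-like cells against WT_P60 SCs 1 gene was (Slc26a5, when 6.42% of all genes were called), against WT_P30 OHCs 2 were (Slc26a5 and Tmod1, 10.6%). In nascent HCs against WT_P60 SCs 1 was (Slc26a5, 7.77%), which passed the filter on low counts only through the groups in which it is high. In failing SCs none was called (4.17%). At 0.05 and 1, the counts in these 4 comparisons were 2, 4, 3 and 1, when 13.4%, 19.1%, 13.8% and 9.8% of all genes passed. Sptbn1 was among them in each comparison with WT_P60 SCs. All the comparisons with WT_P60 SCs share those 16 cells. With Slc26a5 set aside, 0 of 6 were called between OHC-like cells and nascent HCs (0.0787% of all genes), with log2 fold changes from -2.88 to 0.40. Between OHC-like cells and failing SCs 0 of 6 were called as well (1.03%), with log2 fold changes from -2.94 to 1.91. In these 2 contrasts the number called at 0.05 and 1 was also 0, when 0.918% and 5.07% of all genes were, and DESeq2 called 0. A gene not called may still differ. On simulated counts of the wild-type comparison the main threshold called 16 of 194 genes changed by 4 on the log2 scale.

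The members of each gene family were then compared within cells on a scale per exon length (TPM), to see which paralogue each cell type used. The other 30 genes, taken as scaffold genes by family name, were added for this. The list held spectrin, ankyrin, Epb41, adducin, tropomodulin, leiomodin, actin, tropomyosin and capping genes. Of these, 22 were tested.

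For β spectrin, WT_P30 OHCs and WT_P60 SCs had similar totals, at 108 ± 50.7 and 134 ± 44.6 TPM, from different genes. Sptb, the βI spectrin first known from red cells, made up 74.7% of the mean in OHCs and was the highest in 15 of 17. Sptbn1 made up 85.1% in SCs and was the highest in 16 of 16. The share of Sptb in the sum of both was 74.7% in the median OHC and 13.0% in the median SC. OHC-like cells lay between, at 47.0% in the median cell (5.61% to 91.2%), and Sptb exceeded Sptbn1 in 4 of 11. It did so in 3 of 16 nascent HCs and 1 of 15 failing SCs. Their median shares also lay between those of the wild-type cells, at 32.6% (0.483% to 100%) and 23.3% (0% to 90.0%).

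The level of Sptb was 434 ± 293 CPM in WT_P30 OHCs and 85.7 ± 42.1 CPM in WT_P60 SCs (log2 fold change 2.34, SE 0.75, adjusted p = 0.012), which passed 0.05 and 1 only. In OHC-like cells it was 213 ± 328 CPM, with a median of 80.0 CPM, and the highest cell, at 1012 CPM, raised the mean. The log2 fold change of Sptb in OHC-like cells was 1.32 against WT_P60 SCs (SE 0.79, adjusted p = 0.379). Against WT_P30 OHCs it was -1.02 (SE 0.81, adjusted p = 0.510), and neither was called. Sptbn1 was at 17.0 TPM in OHC-like cells and 114 TPM in WT_P60 SCs, so the share of Sptb there also reflects less Sptbn1. The β spectrin total was 48.3 ± 43.5 TPM in OHC-like cells, 40.8 ± 29.5 in nascent HCs and 32.5 ± 19.9 in failing SCs, lower than in either wild-type group. Red cell genes summed to at least 1 CPM in 3 of 17 WT_P30 OHCs, among them OHC 14 (78.0 CPM, with Sptb at 204 CPM) and OHC 8 (15.5 CPM, with Sptb at 705 CPM), and their part in Sptb was not tested.

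For tropomodulin, Tmod2, known from neurons, was the highest of 4 paralogues in 17 of 17 WT_P30 OHCs, and Tmod1 in 16 of 16 WT_P60 SCs. Tmod1 was also the highest in 10 of 11 OHC-like cells, 16 of 16 nascent HCs and 15 of 15 failing SCs. The leading paralogue of most induced cells was thus that of SCs. Tmod2 itself was at 597 ± 374 CPM in WT_P30 OHCs and 628 ± 423 CPM in WT_P60 SCs, and at 128 ± 114 in OHC-like cells, 48.7 ± 97.2 in nascent HCs and 9.83 ± 35.4 in failing SCs. Between failing SCs and WT_P60 SCs the log2 fold change was -5.99 (SE 1.25, adjusted p = 0.000311), and the ranges did not overlap, as for 0.481% of all genes in that direction. Both paralogues thus had lower means in the induced cells than in WT_P60 SCs, and summed tropomodulin was 156 to 229 TPM there against 1087 ± 282 TPM in WT_P60 SCs.

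Lmod3 belongs to the leiomodins, relatives of tropomodulins that start actin filaments in muscle. Of the 17 WT_P30 OHCs, 16 expressed it, at 161 ± 136 CPM. OHC-like cells and WT_P60 SCs held no read, and the OHC mean was at least 480 and at least 383 times the level that 3 reads per cell would give in them. Of the 16 nascent HCs, 1 had 27.7 CPM and the others none. Lmod3 was called higher in OHCs than in WT_P60 SCs (adjusted p = 1.18e-07) and lower in OHC-like cells than in OHCs (adjusted p = 5.41e-06). It passed the filter on low counts only through the WT_P30 OHCs, the group in which it is high, so both calls follow in part from that filter. Lmod1, another leiomodin, was at 32.6 ± 73.8 CPM in OHC-like cells, 30.4 ± 47.4 in WT_P30 OHCs and 0.364 ± 1.42 in WT_P60 SCs. At 0.05 and 1 it was above WT_P60 SCs in WT_P30 OHCs and in all 3 induced groups (adjusted p from 0.00359 to 0.00966), with overlapping ranges each time.

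**Figure D3:**
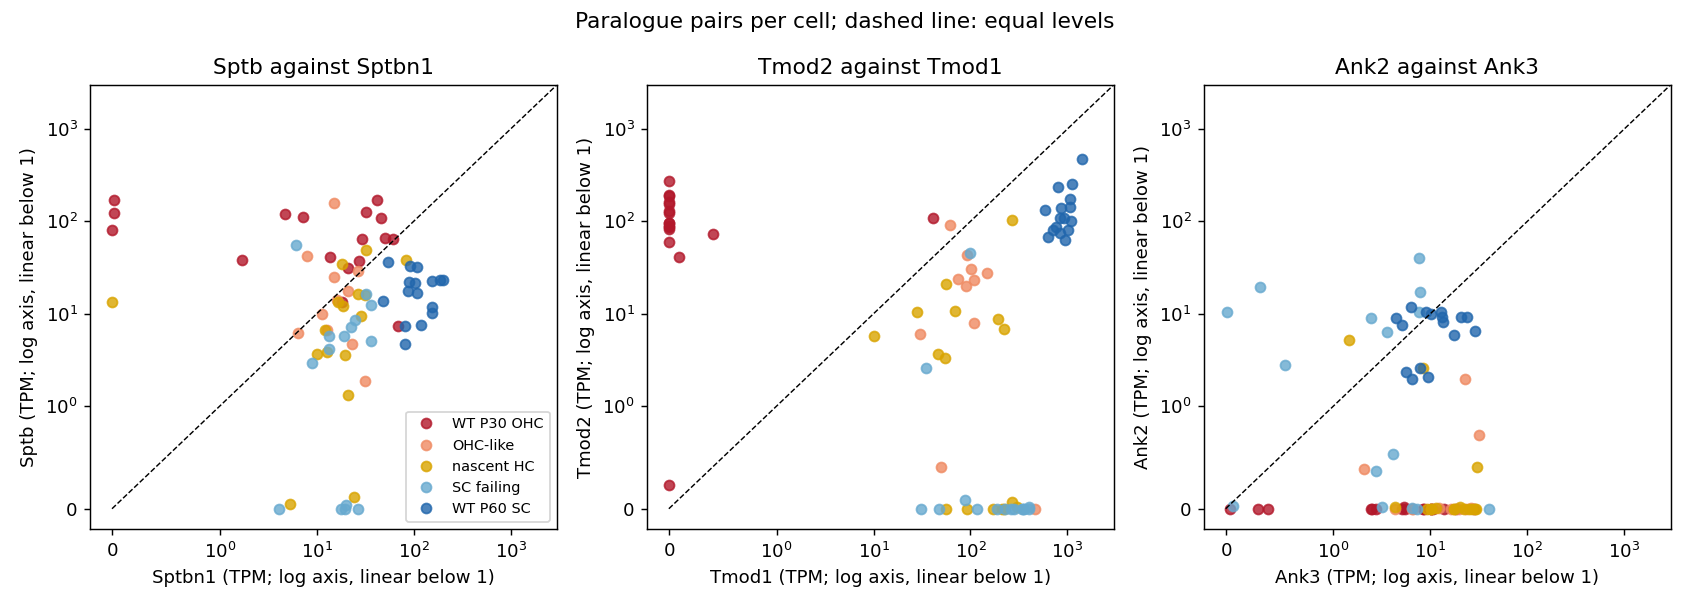
TPM of a paralogue pair in every cell, with Sptbn1, Tmod1 or Ank3 on the horizontal and Sptb, Tmod2 or Ank2 on the vertical axis, both on log axes that are linear below 1; points are cells coloured by group, and the dashed line marks equal levels. All 17 WT_P30 OHCs lie above the line for Tmod2, whereas 10 of 11 OHC-like cells and all WT_P60 SCs lie below it.

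For the ankyrins, Ank3 made up 85.0% of the summed mean TPM in WT_P30 OHCs, 97.2% in OHC-like cells and 97.0% in nascent HCs. In WT_P60 SCs it made up 62.6% and Ank2, an ankyrin of heart and neurons, 37.4%. Ank2 was detected in 16 of 16 WT_P60 SCs (95.0 ± 45.1 CPM) and in 0 of 17 WT_P30 OHCs at 1 CPM, and it was called lower in OHCs (log2 fold change -11.98, SE 1.73, adjusted p = 5.99e-08). In OHC-like cells Ank2 was at 4.57 ± 9.93 CPM, detected in 3 of 11, and in nascent HCs in 3 of 16. Both differences from WT_P60 SCs passed 0.05 and 1 (adjusted p = 0.042 and 0.0383) and not the main threshold. Failing SCs had a mean of 123 ± 162 CPM, detected in 10 of 15. OHC-like cells were also called above WT_P30 OHCs (log2 fold change 7.61, SE 1.49, adjusted p = 4.52e-05), which held a single Ank2 read, so their mean lay between those of the wild-type cells. With so few cells detected in these 2 groups, Ank2 passed the filter on low counts only through the other groups.

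For the Epb41 family, OHC-like cells and nascent HCs were led by a gene that neither wild-type cell type used much. Epb41l4a was at 520 ± 301 CPM in OHC-like cells and 431 ± 224 CPM in nascent HCs. It was at 138 ± 244 CPM in failing SCs, 23.5 ± 45.2 CPM in WT_P60 SCs and 2 reads in all in WT_P30 OHCs. It was higher than in WT_P60 SCs in OHC-like cells (log2 fold change 4.47, SE 0.98, adjusted p = 0.000353) and in nascent HCs (4.20, SE 0.93, adjusted p = 0.000379), and made up 62.0% and 67.4% of the family's mean TPM. The family total was 170 ± 62.6 TPM in OHC-like cells and 17.7 ± 17.8 TPM in WT_P30 OHCs. Whether the Epb41l4a protein joins spectrin to actin was not tested.

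Epb41l1, Epb41l4a and Epb41l4b were all called lower in WT_P30 OHCs than in WT_P60 SCs and higher in OHC-like cells than in WT_P30 OHCs. Epb41l4b had no read in OHCs and was at 124 ± 220 CPM in OHC-like cells and 49.2 ± 51.5 CPM in WT_P60 SCs, or 17.4 ± 14.4 and 15.2 ± 16.1 TPM. Dmtn, which encodes dematin, a protein that bundles actin at spectrin junctions, showed the same pair of calls, at 0 CPM in OHCs, 26.7 ± 39.7 in OHC-like cells and 131 ± 88.9 in WT_P60 SCs. Epb41, the red cell member, was at 57.4 ± 81.3 CPM in WT_P30 OHCs and 194 ± 102 CPM in WT_P60 SCs and was not called.

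For adducin, Add1 had the highest TPM in 10 of the 10 OHC-like cells with any adducin and in 16 of 16 WT_P60 SCs, and made up 78.5% to 97.3% of the family's mean in all 5 groups. Add3 was thus the minor adducin by its mean, although it was the highest in 4 of the 13 WT_P30 OHCs with any, and Add2 was at or near 0.

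Actin, the filament of the lattice, was also lower in OHCs. Actb was at 86.0 ± 81.9 CPM in WT_P30 OHCs and 1487 ± 748 CPM in WT_P60 SCs, with no overlap (log2 fold change -4.11, SE 0.50, adjusted p = 3.93e-10). OHC-like cells, at 982 ± 497 CPM, were all above the highest WT_P30 OHC (log2 fold change 3.51, SE 0.51, adjusted p = 8.84e-08), as for 0.717% of all genes. Actg1 was called in the same directions, at 344, 1708 and 1626 CPM in OHCs, OHC-like cells and SCs.

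Tropomyosins coat actin filaments. Tpm3 led in 16 of 16 WT_P60 SCs and was called lower in WT_P30 OHCs (29.0 against 381 CPM, log2 fold change -3.71, SE 0.81, adjusted p = 0.000166). Tpm4 had no read in OHCs and was at 5.15 ± 9.36 CPM in WT_P60 SCs. It was at 83.2 ± 82.8 CPM in OHC-like cells, 228 ± 232 in nascent HCs and 306 ± 380 in failing SCs. It was called higher than in WT_P60 SCs in nascent HCs (log2 fold change 5.47, SE 1.14, adjusted p = 0.000201) and failing SCs (5.89, SE 1.17, adjusted p = 0.000187), and in OHC-like cells passed 0.05 and 1 (4.01, SE 1.10, adjusted p = 0.00598).

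Counted over the 22 tested scaffold genes, 1 was called higher and 9 lower in WT_P30 OHCs than in WT_P60 SCs, when 4.96% and 10.3% of all genes were. In OHC-like cells 8 were called higher and 1 lower than in WT_P30 OHCs (10% and 0.577% of all genes), and 1 was called higher than in WT_P60 SCs (5.77%). The median log2 fold changes of these genes were -1.31, 1.20 and 0.06, beside -0.16, 0.61 and 0.32 for all tested genes. Calls in OHC-like cells against WT_P30 OHCs moved with the fit. Over all genes, 1145 were called higher and 66 lower in the reported fit. With the number of detected genes as a covariate these were 361 and 38, and in the fit of the 2 groups alone 56 and 60. Counts of the scaffold genes in those fits are not given. Between OHC-like cells and nascent HCs or failing SCs none of the 22 scaffold genes was called at the main threshold. At 0.05 and 1, Tmod2 was higher in OHC-like cells than in failing SCs (log2 fold change 3.70, SE 1.16, adjusted p = 0.0435). Series C held 10 of the failing SCs and no OHC-like cell, and the part of series in this value was not tested.

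**Figure D4:**
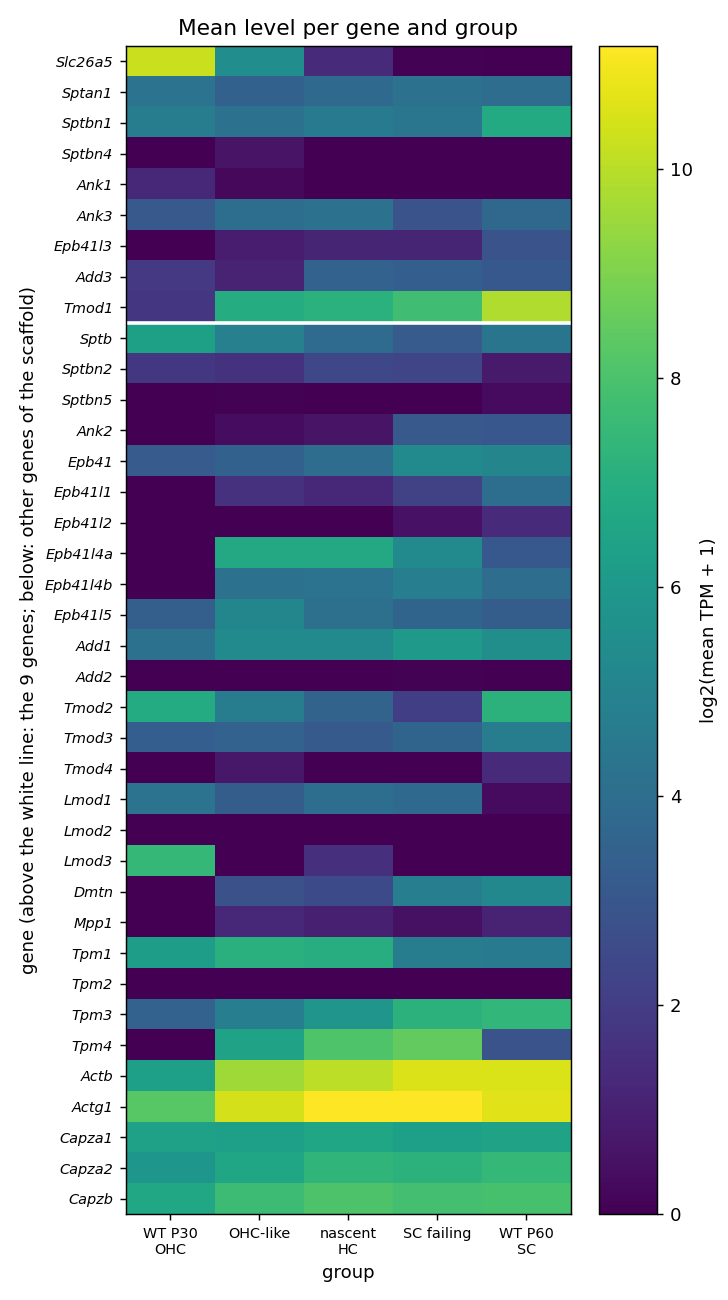
Mean TPM per group (columns) of the 9 genes, above the white line, and other genes of the scaffold (rows), coloured by log2(mean TPM + 1). The column of WT_P30 OHCs is at or near 0 at Epb41l4a, Tpm4 and Dmtn, where OHC-like cells average 105, 84.7 and 5.81 TPM, and is highest at Slc26a5 (1249 TPM).

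The median WT_P30 OHC had 4 of the 9 genes at 1 CPM or more, the median OHC-like cell 5 and the median WT_P60 SC 4. Ranked by TPM, the 9 genes came in a different order in each cell type. In WT_P30 OHCs Slc26a5 led at 1249 ± 303 TPM, ahead of Sptbn1 at 25.0 and Sptan1 at 18.1 TPM. In OHC-like cells Tmod1 led at 120 ± 117 TPM, ahead of Slc26a5 at 44.1 ± 43.4, Sptbn1 at 17.0 and Ank3 at 15.6 TPM. In WT_P60 SCs Tmod1 led at 916 ± 208 TPM, ahead of Sptbn1 at 114 ± 44.7 TPM. The order in nascent HCs and failing SCs began in the same way, with Tmod1 at 142 and 215 TPM and Sptbn1 at 22.6 and 20.1 TPM.

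Within a group, the genes did not rise and fall together. Over pairs of genes detected in at least 6 cells of a group, the median Spearman correlation was between -0.09 and 0.20 in the 5 groups. In OHC-like cells Slc26a5 and Tmod1 had a correlation of -0.07, and Slc26a5 and Sptbn1 of -0.45, over 11 cells. Sptan1 and Tmod1 had -0.76 in OHC-like cells and 0.67 in nascent HCs. The points share depth and amplification, and no test was made.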

How the data were processed

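RNA-Seq libraries of 75 single cells from the mouse cochlea were analysed. The authors deposited 1 table of raw counts per gene, made with HTSeq 0.10.0 after FastQC 0.11.9, Trimmomatic 0.39 and alignment to GRCm38 with HISAT2 2.1.0. StringTie 1.3.5 is also listed in their notes. The use of strand and the annotation release are not given in the sources used here, and the counts were neither normalized nor pooled. No molecular identifiers were used, so depth gives counting precision only. A row for WPRE, which names no mouse gene (0.0254% of counts), was left out. No 2 columns held identical values.

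From the deposited counts, 7 comparisons were fitted with edgeR 4.0.16 in R 4.3.3: TMM scaling, a filter at a minimum count of 10 by group, all 5 groups in the fit, the quasi-likelihood F-test and Benjamini-Hochberg adjustment over 11443 genes. Genes were called when the adjusted p was below 0.001 and the log2 fold change beyond 2 in either direction. Alternatives were DESeq2 1.42.0, other scalings, no filter, limma-trend (limma 3.58.1, prior count 2), other covariates, a replicate block, thinning, 2-group fits, leaving out each OHC-like cell and, added after seeing the data, leaving out WT_P30 OHC 6. TPM used exon lengths of GENCODE M21, from which coordinates also came. Detection means at least 1 CPM of the total count. A fold against a group without reads was bounded with 3 reads per cell. Intervals are exact (95%), and the upper share of cells for a gene without reads is approximated as 3 divided by the number of cells. Python 3.11.15 and matplotlib 3.10.9 drew the plots.

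The 9 genes and the lists were chosen with earlier results of these data known. 1 of the 30 listed scaffold genes is left out of the text and plots and enters only the counts. Text names all 9 genes, the listed scaffold and SLC26 genes called in the wild-type or OHC-like comparisons with others of their families for context, chosen after their values were seen, and the 5 genes most like Slc26a5 and 3 most like other members. On simulated counts with 200 changed genes, the comparison of WT_P30 OHCs with WT_P60 SCs called 16 of 194 tested genes changed by 4 on the log2 scale, with 0 false calls among 10949 genes. At 8 it called 128 of 191, with 2 false calls among 10945.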

Additional observations from a re-analysis of the deposited data

How the results depend on the processing

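Counts of called genes in comparisons of induced with wild-type cells moved with the threshold and the fit. In OHC-like cells against WT_P60 SCs, 1 gene was called in the reported fit, 2 at 0.05 and 1, 2 by DESeq2, 2 by limma-trend and 3 in a fit of the 2 groups alone. Against WT_P30 OHCs, 2 were called, then 4 at 0.05 and 1, 1 with the number of detected genes as a covariate and 1 in the fit of the 2 groups alone. In nascent HCs against WT_P60 SCs, 1 was called, then 3 at 0.05 and 1, and 2 with DESeq2 or the 2 groups alone, where they were Sptbn1 and Tmod1 and Slc26a5 did not pass the filter. In failing SCs, 0 were called, then 1 at 0.05 and 1, with DESeq2 and with the 2 groups alone. The cause of these moves was not tested. Leaving out each OHC-like cell gave 1 in every fit against WT_P60 SCs, 2 against WT_P30 OHCs and 0 against nascent HCs or failing SCs. Without WT_P30 OHC 6 the counts were again 3 against WT_P60 SCs and 2 against OHC-like cells.

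The replicate block kept every count (3, 1, 2, 1, 0, 0 and 0 over the 7 comparisons). Cells with the same number shared no deviation, with a median correlation between -0.024 and 0.0023 over the pairs of groups, so the number pairs no cells.

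Of the log2 fold changes of single genes, 38 turned sign under an alternative and 749 kept both sign and side of the threshold, and none that turned had been called. With the replicate block, Sptan1 came to -0.058 in OHCs against SCs, 0.0275 in OHC-like cells against OHCs and 0.24 in nascent HCs against SCs. Add3 came to 1.66, 4.50, 1.57 and 1.78 in OHC-like cells against SCs, OHCs, nascent HCs and failing SCs, and to -0.13 in failing SCs against SCs. With limma-trend, Sptan1 came to 0.64, 0.62 and 1.35 in OHC-like cells against SCs and OHCs and in nascent HCs against SCs, Sptbn1 to 1.40 and 0.44 in OHC-like cells against OHCs and nascent HCs, and Add3 to -0.0882 in failing SCs against SCs. With the number of detected genes as a covariate, Sptbn1 came to 0.44 and Add3 to 2.55 in OHC-like cells against OHCs. In OHC-like cells against nascent HCs, Sptbn1 came to 0.0027 with no filter and Tmod1 to -0.0400 with library size only. Against failing SCs, Sptbn1 came to -0.0387 with DESeq2 or its scaling, -0.0944 with TMMwsp, -0.0617 with library size only, -0.064 with thinning, -0.045 with the block and -0.88 with library series as a covariate, which gave 0.17 for Tmod1. Leaving out 1 OHC-like cell at a time, Sptbn1 ranged from -0.24 to 0.031 against OHCs, from -0.21 to 0.0494 against nascent HCs and from -0.12 to 0.11 against failing SCs. Against nascent HCs, Ank3 ranged from -0.0904 to 0.59 and Tmod1 from -0.24 to 0.20.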
